A study of Canis lupus familiaris with 33 samples.

Results

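Endothelial cells line blood and lymph vessels, and the products of the 10 genes described here are used to mark them. The genes encode the junction proteins PECAM1, CDH5, ESAM and CLDN5, the receptors KDR, FLT1, TEK, TIE1 and ROBO4, and the co-receptor ENG. They were chosen by symbol from the TMM-normalized table, in which 9 of the 10 had a row among 25096 genes; CLDN5 was not analysed here. Their levels were read in bulk RNA-seq of canine invasive urothelial carcinoma (iUC), with 29 tumors taken at cystoscopy, 1 per dog and before any treatment, and 4 normal samples, A to D. All tumors were of high grade, and the methods describe them as of high epithelial cellularity. The normal samples were the urothelial layer dissected from the bladder of dogs euthanized for other diseases. Tumors are numbered 1 to 29 in the order of their records. All libraries were run in 1 batch. Since every tumor was a biopsy and every normal sample a dissected layer from a euthanized dog, tissue source, way of sampling and diagnosis cannot be told apart.

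In the vessel wall, VEGF ligands act on the tyrosine kinase receptors KDR and FLT1. KDR carries most of the growth signal, and FLT1 binds VEGFA tightly and also acts as a trap for it. Angiopoietins act on TEK, with ANGPT1 as its agonist and ANGPT2 as a context-dependent antagonist, and TIE1 is the orphan partner of TEK. ENG is a co-receptor for ligands of the TGF-beta and BMP family, ROBO4 is a stabilizing receptor of the endothelium, and CDH5, PECAM1 and ESAM hold endothelial cells together. Because these genes are largely confined to endothelium, their level in a bulk sample follows both how much vessel the sample holds and how strongly each cell transcribes them. A smaller number of endothelial cells and less RNA per cell cannot be told apart in these data.

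Values are on the log2 scale of the normalized expression and are centred on the middle of the 33 samples for each gene, so 0 is the middle sample, a difference of 1 is a 2-fold difference, and levels cannot be compared between genes. The values are not counts and the depth of each library is unknown. Depth can be read only indirectly, from genes at their shared lowest value. These numbered 755 to 1019 in the normal samples and 3699 to 8175 in the tumors. The share of olfactory receptor genes above their lowest value was 99.7% to 100% in the normal samples and 4.37% to 91.3% in the tumors. None of the 9 endothelial genes lay at a lowest value in any tumor. The description of the normal samples as the urothelial layer was checked against fixed lists. Over all genes tested by limma, as described below, 10.7% were called higher and 45.8% lower in tumors. All 7 smooth muscle genes tested were lower in tumors, with a mean level of 5.06 to 7.13 in the 4 normal samples and -1.11 to 3.91 in the tumors, and none was at its lowest value in any tumor. Of the 6 epithelial genes tested 5 were higher in tumors, among them EPCAM by 2.18 and CDH1 by 2.15 on the log2 scale. Of the 7 fibroblast genes tested 6 were lower in tumors and 1 was higher, PDGFRA, by 1.62 (limma adjusted p = 0.00644). Their mean level was 1.86 to 2.46 in the normal samples and -2.0 to 2.18 in the tumors. The part of these genes in the comparisons below was not tested. Normal sample D was the lowest of the 4 normal samples in all 6 epithelial genes tested, with UPK2 at -2.14 against 0.35 to 0.38 in the others. Without it none of the 9 endothelial genes was called higher or lower.

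The mean level of the 9 endothelial genes in the normal samples lay in the middle of that of the tumors, which differed widely from each other. In normal samples A to D it was 0.05, -0.19, -0.32 and 0.34. In the tumors it ran from -1.72 to 2.00 around a median of 0.06, a 13.2-fold range. Of the 29 tumors, 11 lay above all 4 normal samples, 11 below all of them and 7 between them. The SD of the mean level was 0.847 over the tumors and 0.289 over the normal samples, a difference that was not tested.

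None of the 9 genes differed between the groups by limma, fitted over 24471 genes and called at a Benjamini-Hochberg adjusted p of at most 0.05 with at least a 2-fold change. None of them reached an unadjusted p of 0.05 in that fit either, which 73.1% of all genes did. These 0 of 9 calls stand beside the 10.7% called higher and 45.8% called lower over all genes. The median difference over the 9 genes was -0.03, beside -0.84 over all genes and -0.01 over those genes whose median lay above their lowest value. In the DESeq-normalized table, where the median of all genes was lower still at -1.11, the difference of each of the 9 genes was lower by the same 0.30 and TEK was called lower in tumors. This was the only change of call among the 9 genes over the settings tried.

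**Figure D1:**
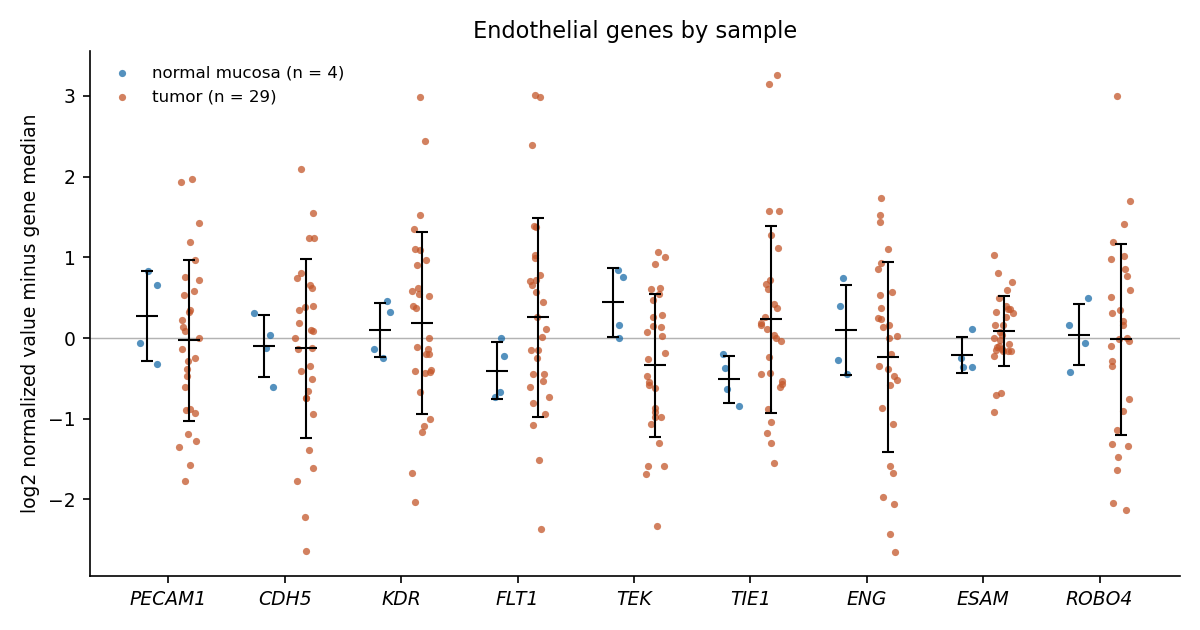
Level of 9 endothelial genes (vertical axis, log2 normalized value minus the median of the gene over 33 samples) in each of the 4 normal samples (blue) and 29 tumors (orange); black lines are the mean and SD of each group. The tumors reach above and below the normal samples for every gene, from -2.65 for ENG to 3.27 for TIE1.

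No junction protein separated the groups. PECAM1, an adhesion molecule of endothelium, platelets and leukocytes, was at 0.83, -0.32, -0.06 and 0.65 in normal samples A to D and at -1.77, 0.00 and 1.98 in the lowest, median and highest tumor. Its difference between tumors and normal samples was -0.30 (95% CI -1.32 to 0.71, limma adjusted p = 0.594). The groups overlapped, with 13 tumors within the range of the normal samples, 5 above it and 11 below it.

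CDH5, the cadherin of endothelial junctions, was at 0.04, -0.13, -0.61 and 0.31 in the normal samples and at -2.64, 0.00 and 2.10 in the lowest, median and highest tumor. With a difference of -0.03 (95% CI -1.15 to 1.08, limma adjusted p = 0.960) the group means nearly coincided, although only 9 tumors lay within the normal range. ESAM, an adhesion molecule of endothelium and platelets, was at -0.36, -0.25, -0.36 and 0.12 in the normal samples and at -0.92, 0.04 and 1.03 in the lowest, median and highest tumor. Its spread was the narrowest of the 9 genes in the tumors, with an SD of 0.44, and its difference was 0.30 (95% CI -0.16 to 0.76, limma adjusted p = 0.241). For ESAM the interval excludes a 2-fold change in either direction, which holds for no other of the 9 genes.

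Among the VEGF receptors, KDR was at -0.14, -0.24, 0.45 and 0.32 in the normal samples and at -2.03, 0.00 and 2.99 in the lowest, median and highest tumor. The difference was 0.09 (95% CI -1.04 to 1.22, limma adjusted p = 0.890), with 12 tumors above and 10 below all normal samples. FLT1 was at 0.00, -0.67, -0.73 and -0.22 in the normal samples and at -2.37, 0.11 and 3.01 in the lowest, median and highest tumor. More tumors lay above the normal samples than below them for FLT1, 16 against 5, but the difference of 0.66 had a 95% CI from -0.57 to 1.90 (limma adjusted p = 0.331).

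The angiopoietin receptor TEK and its partner TIE1 had differences of opposite sign, neither of which passed the test. TEK was at 0.76, 0.00, 0.16 and 0.85 in the normal samples and at -2.33, -0.26 and 1.06 in the lowest, median and highest tumor. Its difference was -0.78 (95% CI -1.69 to 0.13, limma adjusted p = 0.118), and 16 tumors were below all normal samples against 3 above. On the DESeq-normalized values the difference was -1.08 with a limma adjusted p of 0.0333, within a range of 0.0333 to 0.277 over its alternatives. TIE1 was at -0.38, -0.63, -0.85 and -0.19 in the normal samples and at -1.55, 0.11 and 3.27 in the lowest, median and highest tumor. Here 18 tumors were above all normal samples against 5 below, with a difference of 0.74 (95% CI -0.42 to 1.90, limma adjusted p = 0.243).

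The remaining receptors did not separate the groups. ENG was at -0.27, 0.39, -0.45 and 0.74 in the normal samples and at -2.65, 0.00 and 1.73 in the lowest, median and highest tumor, a difference of -0.34 (95% CI -1.54 to 0.85, limma adjusted p = 0.608). ROBO4 was at -0.07, 0.16, -0.42 and 0.49 in the normal samples and at -2.13, 0.00 and 3.00 in the lowest, median and highest tumor, a difference of -0.06 (95% CI -1.25 to 1.13, limma adjusted p = 0.935). Exact two-sided permutation tests over the 33 samples, run gene by gene without adjustment, gave p from 0.0979 for TEK to 0.952 for CDH5. With 4 normal samples the intervals are wide, and for every gene except ESAM they include a 2-fold change in at least 1 direction, so a change of that size cannot be told from none.

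The balance between the receptors of a pair was compared within each sample, where the amount of vessel enters both genes alike if endothelium is the source of both. Whether that holds for TIE1 and TEK was not tested. Over the 29 tumors their r was 0.373 and did not pass (permutation test, adjusted p = 0.0836), while by rank it passed (rho 0.472). TEK also passed with the smooth muscle gene MYH11 (r = 0.430) and the leukocyte gene PTPRC (r = 0.500). The log2 ratio of TIE1 to TEK, on the relative scale of the values, was -1.13, -0.63, -1.01 and -1.04 in normal samples A to D. In the tumors it ran from -0.87 to 4.13 with a median of 0.44, and 24 of the 29 tumors lay above all normal samples. The mean was -0.95 ± 0.22 (SD, n = 4) in normal samples and 0.57 ± 1.17 (SD, n = 29) in tumors, a difference of 1.52 (exact permutation test, two-sided, p = 0.0174, adjusted over 3 ratios p = 0.0260).

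The ratio was farthest from the normal samples in tumor 1, where TIE1 was at 3.15 while the mean of the 9 genes was -0.69. TIE1 was also high in tumor 22, at 3.27. Leaving out each tumor in turn, which was added after the values were seen, left a difference of 1.39 to 1.57 with exact permutation p adjusted over 3 ratios of 0.0111 to 0.0304. Without normal sample A, C or D that adjusted p rose to between 0.0550 and 0.0590 with a difference of 1.46 to 1.5, and without B it was 0.0381. With 3 normal samples the ratio thus lay close to the threshold, and the call depended on which sample was left out.

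The ratio of the ligands of TEK also differed. The log2 ratio of ANGPT2 to ANGPT1 was -2.17, -1.10, -1.47 and -2.18 in normal samples A to D. It ran from -2.18 to 2.50 with a median of 0.19 in the tumors, of which 24 lay above all normal samples. The means were -1.73 ± 0.54 (SD, n = 4) and 0.07 ± 1.23 (SD, n = 29), a difference of 1.79 (exact permutation test, two-sided, p = 0.00591, adjusted over 3 ratios p = 0.0177). Without normal sample A or D the difference was 1.65 and the adjusted p 0.0590 and 0.0563. The ligand ratio turns on a gene of other cells, since ANGPT1 is made largely by mural and stromal cells, and the smooth muscle genes fell by a median of 6.13 on the log2 scale in the same samples; the part of this was not tested. FLT1 to KDR, with a difference of 0.57, did not pass (exact permutation test, two-sided, p = 0.137, adjusted over 3 ratios p = 0.137). Leaving out each normal sample in turn moved that difference between 0.34 and 0.78, with exact permutation adjusted p of 0.0714 to 0.468.

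**Figure D2:**
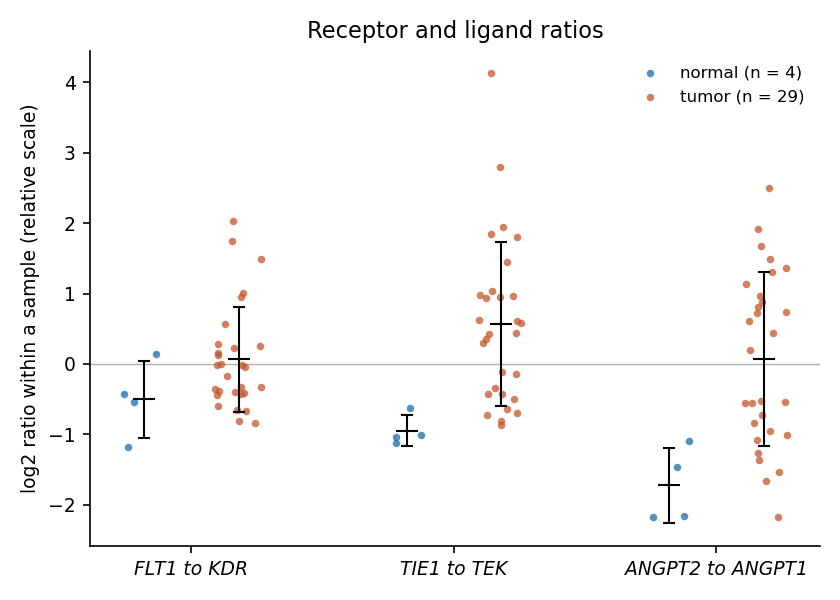
Log2 ratio within a sample (vertical axis, relative scale) of FLT1 to KDR, TIE1 to TEK and ANGPT2 to ANGPT1 in 4 normal samples (blue) and 29 tumors (orange), with the mean and SD of each group in black. For TIE1 to TEK and for ANGPT2 to ANGPT1, 24 of the 29 tumors lie above all 4 normal samples; for FLT1 to KDR, 10 do.

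Ligands and co-receptors of these receptors were called about as often as genes in general. Of the 15 of 19 listed genes that were tested, 1 was higher in tumors, 7 were lower and 7 were not called, beside 10.7% higher and 45.8% lower over all genes. The median difference over the 15 was -0.86, close to the -0.84 over all genes. VEGFA, the ligand of KDR and FLT1, was the gene that rose. It was at -2.32, -2.43, -2.43 and -2.07 in the normal samples and at -0.91, 0.04 and 3.82 in the lowest, median and highest tumor, so that all 29 tumors were above all normal samples. The rise was 2.75 (95% CI 1.63 to 3.87, limma adjusted p = 4.66e-05).

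The other VEGF ligands did not share it. VEGFC, which acts on FLT4 and KDR, was at 1.62, 1.66, 1.61 and 1.82 in the normal samples and at -1.71, -0.06 and 2.61 in the lowest, median and highest tumor, and fell by 1.67 (limma adjusted p = 0.00388). VEGFB, a ligand of FLT1, fell by 1.49 (limma adjusted p = 0.00317), with 23 tumors below all normal samples. PGF, which also binds FLT1, differed by -0.49 (95% CI -1.36 to 0.39) and was not called.

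Of the angiopoietins, ANGPT1 was at 2.11, 0.52, 0.86 and 1.73 in the normal samples and at -1.80, -0.07 and 2.01 in the lowest, median and highest tumor. It fell by 1.28 (limma adjusted p = 0.0248), and this call was lost without normal sample A or D, where the adjusted p was 0.124 and 0.0873. ANGPT4, another TEK ligand, was at 2.65, 2.16, 2.62 and 3.22 in the normal samples and at most 2.08 in a tumor, and fell by 2.82 (limma adjusted p = 0.000129). ANGPT2, which endothelial cells store and release, was at -0.06, -0.58, -0.61 and -0.45 in the normal samples with a tumor median of 0.09, and its difference of 0.52 was not called (limma adjusted p = 0.271).

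The circulating ligands of ENG and its receptor complex, GDF2 and BMP10, differed by -3.53 and -5.21 and were both called lower. These folds depend on the lowest value, at which GDF2 was listed in 22 tumors and BMP10 in 19, and 45.8% of all genes were called lower. SLIT3, a guidance ligand of the ROBO family, fell by 2.46 (limma adjusted p = 0.000581), whereas SLIT2 differed by 1.54 with a limma adjusted p of 0.0601. NRP1, the VEGF co-receptor, differed by -0.86, FLT4, the VEGFC receptor of lymphatic vessels, by -0.61, ADM, the peptide adrenomedullin, by -0.83 and TGFB1 by -0.45; none of the 4 was called.

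**Figure D3:**
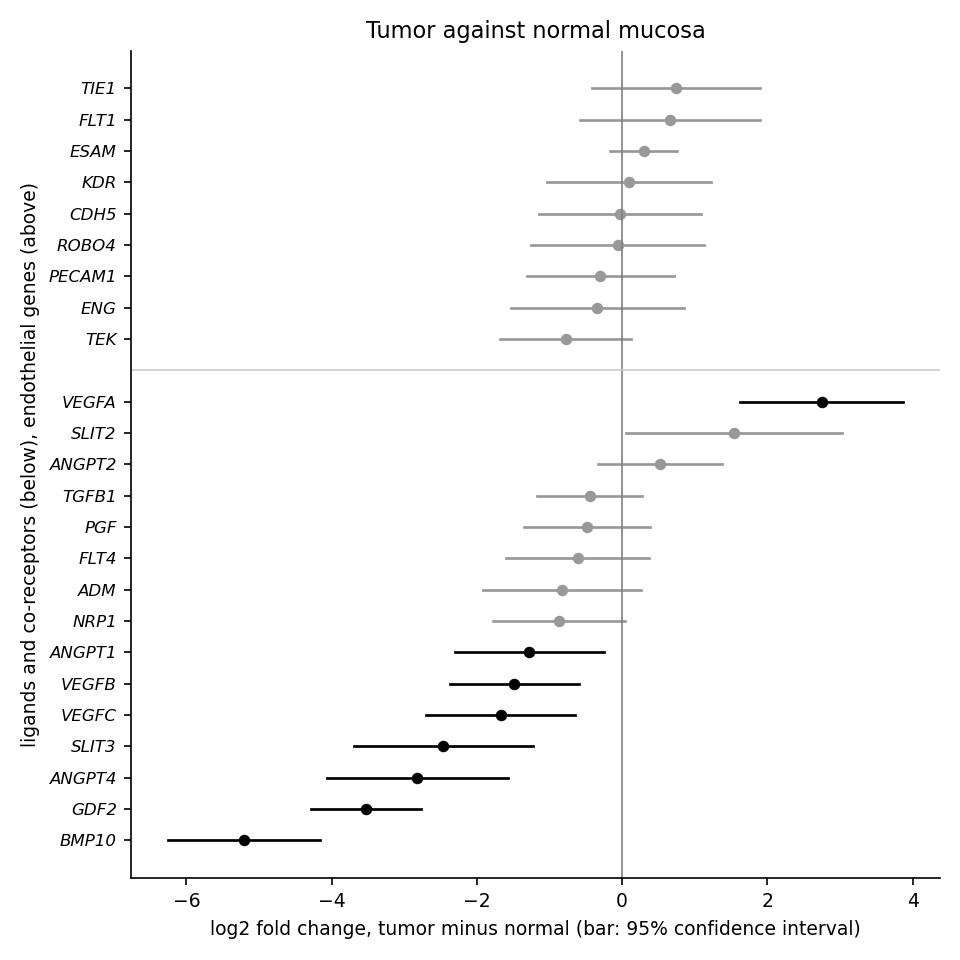
Difference between 29 tumors and 4 normal samples (horizontal axis, log2 fold change with its 95% confidence interval by limma) for the 9 endothelial genes (above the line) and 15 ligands and co-receptors (below it); black marks a call, gray no call. All 9 endothelial genes are gray and lie between -0.78 and 0.74, while the ligands run from -5.21 for BMP10 to 2.75 for VEGFA.

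In a wider list of endothelial genes most were not called. Of the 20 of 29 listed genes that were tested, 3 were higher in tumors, 4 were lower and 13 were not called, with a median of -0.46, beside 10.7% higher and 45.8% lower over all genes. The largest falls were those of LYVE1, a hyaluronan receptor of lymphatic vessels and macrophages, with -3.3 (limma adjusted p = 3.81e-05), and of CD34, a sialomucin of capillaries and progenitor cells, with -1.42 (limma adjusted p = 0.0223). CD34 was at 1.18, 1.11, 1.39 and 1.70 in the normal samples and at -2.15, -0.17 and 2.48 in the lowest, median and highest tumor; without normal sample C or D its adjusted p was 0.0511 and 0.0729. In contrast, the lymphatic transcription factor PROX1 differed by 0.01, and its median r with the 9 genes over the tumors was -0.445.

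Both genes of the wider list with the largest rise did not follow the others among tumors. ADGRL4, an adhesion GPCR of endothelium, rose by 3.36 (limma adjusted p = 0.000496) from -3.08, -3.75, -3.99 and -4.09 in the normal samples to a tumor median of 0.09. MMRN2, a matrix protein of the vessel wall, rose by 3.11 (limma adjusted p = 6.04e-12), and all 29 tumors were above all normal samples. The median r of each with the 9 endothelial genes over the tumors was -0.041 for ADGRL4 and -0.185 for MMRN2, beside 0.689 as the median over the 20 genes of the list. SNCG is the neighbour of MMRN2 in the RefSeq table of the UU_Cfam_GSD_1.0 assembly; over the tumors its r with MMRN2 was 0.311 (permutation test, adjusted p = 0.163), and whether reads of other genes enter these rows was not tested.

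Of the 8 of 12 genes of sprouting tip and stalk cells that were tested, 2 were higher and none was lower in tumors, beside 10.7% and 45.8% over all genes. Without adjustment 3 of the 8 had p under 0.05 by limma, beside 73.1% of all genes. ESM1, a secreted proteoglycan of tip cells, was at -1.50, -1.97, -1.94 and -2.0 in the normal samples and at -1.81, 0.32 and 5.46 in the lowest, median and highest tumor, and rose by 2.56 (limma adjusted p = 0.0119). JAG1, a Notch ligand that epithelium also makes, rose by 1.22 (limma adjusted p = 0.0127), a call lost in the DESeq-normalized table. The apelin receptor APLNR differed by 1.25 without passing (limma adjusted p = 0.0903).

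Of the 5 genes tested from the pericyte list, which also holds the ligand PDGFB, 1 was called, beside 10.7% called higher and 45.8% lower over all genes. It was MCAM, which smooth muscle and endothelium also express and which fell by 3.74 (limma adjusted p = 5.45e-06). The pericyte receptor PDGFRB differed by -1.14 (limma adjusted p = 0.101). Of the 5 lymphatic genes tested, which include LYVE1 and FLT4, 3 were lower, beside 45.8% of all genes, with differences of -2.17 for PDPN, the podoplanin of lymphatic vessels and fibroblasts, and -5.72 for RELN, the glycoprotein reelin, beside LYVE1. RELN ran from -4.83 to 6.48 in the tumors, with 2 tumors at its lowest value and 1 above all normal samples. Of the 8 leukocyte genes tested 2 were higher, CD68 and LCP1, and ITGAM was lower, beside 10.7% higher and 45.8% lower over all genes. Of the 4 platelet genes tested 1, TREML1, was lower. PECAM1 and ESAM are also made by such blood cells, and the mean level of the 4 platelet genes was 0.02 to 0.66 in the normal samples and -2.02 to 1.36 in the tumors, with GP9 at its lowest value in 4 tumors.

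Among the tumors the endothelial genes varied together. Over the 29 tumors the 36 pairs of the 9 genes had a median Pearson r of 0.660 (range -0.069 to 0.911), 35 were positive, and 25 passed a two-sided permutation test with 100000 resamples at an adjusted p of at most 0.05 over the 93 correlations computed. By Spearman's rho 27 passed, with a median rho of 0.598. The lowest r among the 25 was 0.415, and of all 216720 correlations of the 9 genes with the other tested genes 5.27% were at or above it; their median r was -0.010. Without tumor 21, a choice added after the values were seen, 22 of the 36 pairs passed and the median r was 0.594.

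PECAM1, CDH5, KDR, ROBO4, ENG and TEK formed a tight block. Their 15 pairs had r from 0.727 (TEK with ROBO4) to 0.911 (KDR with ROBO4), where the latter had a rho of 0.880 and an r of 0.872 without the 2 tumors farthest from the KDR median. PECAM1 with CDH5 reached r = 0.906 (rho 0.903, 0.876 without the 2 farthest tumors, permutation test, adjusted p = 3.87e-05). That adjusted p follows from the smallest p that 100000 resamples can give, 1e-05. These genes lie on 4 different chromosomes, 5, 9, 11 and 13, by the RefSeq table. As a check added after the values were seen, the r of each of the 9 genes with the median level of its own chromosome was between -0.356 (CDH5) and 0.253 (ENG) over the tumors, and none passed (permutation test, adjusted p of 0.109 or more over 105 correlations).

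FLT1 was tied less closely to this block. Its r was 0.804 with KDR, 0.728 with ROBO4, 0.671 with PECAM1, 0.649 with CDH5, 0.567 with TEK and 0.512 with ENG, and all 6 passed. In tumors 10 and 24 FLT1 stood at 1.03 and 0.65, while KDR stood at -1.0 and -1.09. On the map of levels by tumor FLT1 left the order of the block in these tumors, and also in tumors 17 and 22. There it stood at 1.38 and 2.39, while KDR stood at 0.37 and 0.90.

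TIE1 and ESAM followed the block weakly, and each of the 11 pairs that did not pass held 1 of them or both. TIE1 had r from 0.196 (ENG) to 0.469 (FLT1) with the 7 other genes apart from ESAM, and only the FLT1 pair passed. By rank the TIE1 pairs with PECAM1, CDH5, KDR, TEK, ROBO4 and FLT1 passed, with rho from 0.439 to 0.520. Tumors 1 and 22 were far above the other tumors in TIE1 but at -0.69 and 0.88 in the mean of the 9 genes. Without these 2 tumors TIE1 with ENG went from r = 0.196 to 0.455 (permutation test, adjusted p = 0.0369), TIE1 with ROBO4 from 0.320 to 0.563 (permutation test, adjusted p = 0.00599), and TIE1 with ESAM from -0.069 to 0.178 without passing. The FLT1 pair did not pass without the 2 tumors farthest from the FLT1 median (r = 0.388). ESAM had r from -0.069 (TIE1) to 0.492 (PECAM1). Its pairs with PECAM1, KDR and ROBO4 passed, and none of those 3 passed without tumor 21 (r of 0.395, 0.310 and 0.268, permutation test, adjusted p = 0.0744, 0.184 and 0.261). By rank none of the 3 passed either (rho of 0.394, 0.369 and 0.316, permutation test, adjusted p = 0.0579, 0.0775 and 0.144).

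For 2 of the 9 genes a neighbouring gene was also compared. ESAM lies beside VSIG2 in the RefSeq table, and over the tumors the pair had r = 0.445 (rho 0.558, permutation test, adjusted p = 0.0325), close to the r of ESAM with KDR, 0.447. ENG overlaps FPGS in that table, with r = 0.621 (permutation test, adjusted p = 0.00120). Whether the counting used strand is not given in the sources used here, so part of the ENG row may be shared with FPGS; this was not tested.

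**Figure D4:**
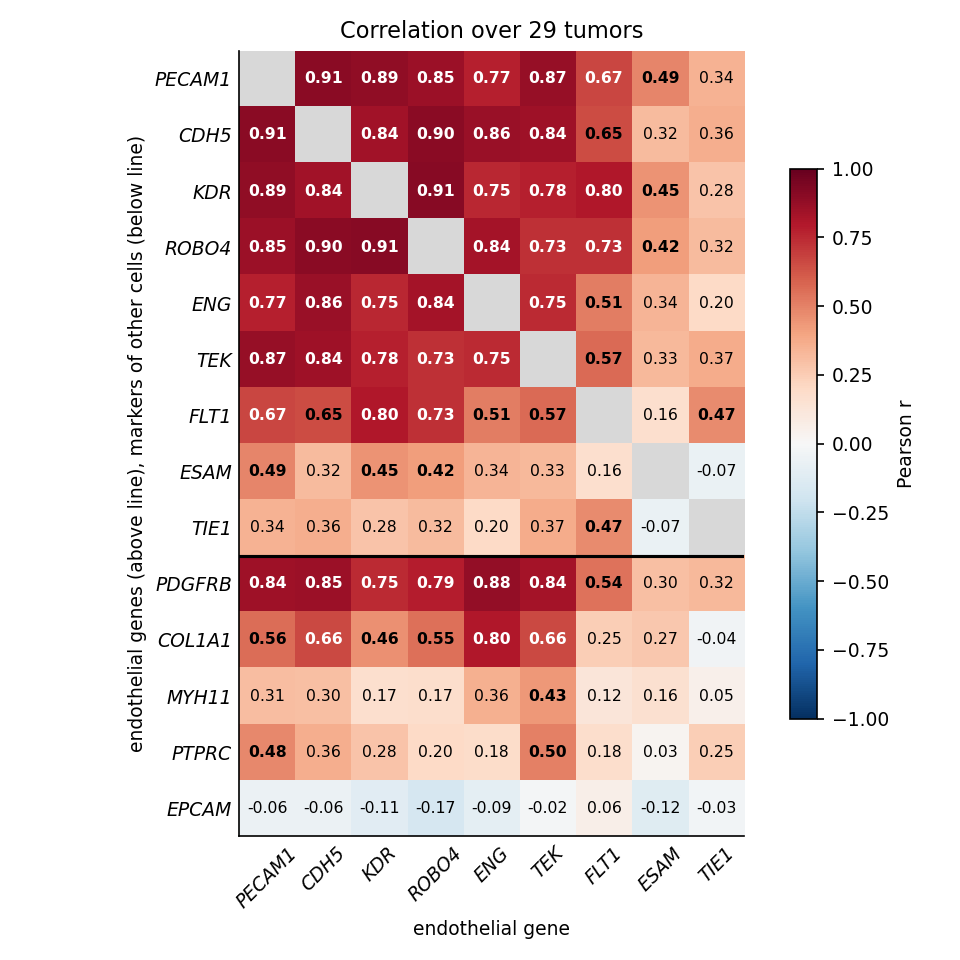
Pearson r over 29 tumors (number and color) between 9 endothelial genes (columns) and the same genes (rows above the line) or markers of other cells (rows below it: PDGFRB pericyte, COL1A1 fibroblast, MYH11 smooth muscle, PTPRC leukocyte, EPCAM epithelium); bold marks an adjusted p of at most 0.05. PECAM1, CDH5, KDR, ROBO4, ENG and TEK form a block with r from 0.73 to 0.91, which PDGFRB shares, whereas EPCAM stays between -0.17 and 0.06.

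The block was seen tumor by tumor. Tumor 21 had the highest mean level, 2.00, and was the highest tumor for 6 of the 9 genes and among the top 5 for all 9. Tumor 20 followed at 1.47 with FLT1 at 3.01 and KDR at 2.44, but with ESAM at 0.07. At the other end tumor 6 had a mean of -1.72 and was the lowest tumor for 6 of the 9 genes, with ESAM at 0.36 and TIE1 at -0.53. Tumors 14 and 10 followed at -1.22 and -1.12, each among the lowest 5 tumors for 8 and 7 of the 9 genes. Tumor 14 also had the most olfactory receptor genes above their lowest value, 91.3% of 366, against a tumor median of 19.1% and at least 99.7% in the normal samples. With that share regressed out of each gene 24 of the 36 pairs passed, and the median r was 0.660.

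**Figure D5:**
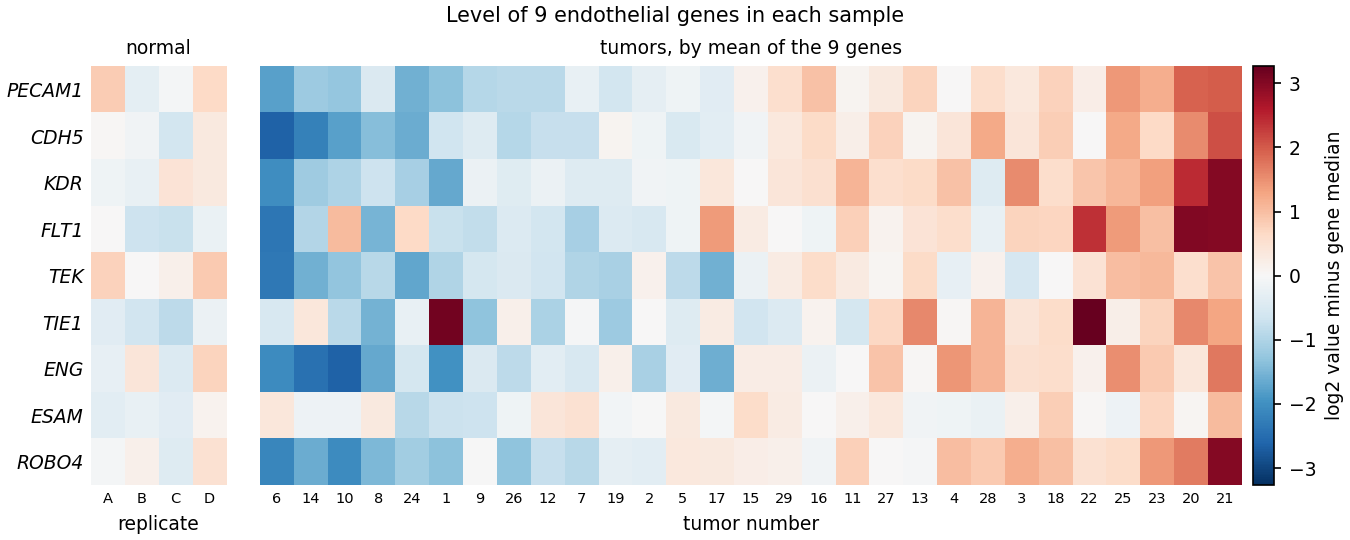
Level (color, log2 value minus the median of the gene) of 9 endothelial genes (rows) in normal samples A to D (left) and in 29 tumors ordered by the mean of the 9 genes (right, tumor numbers on the horizontal axis). Most rows change together from tumor 6 at -1.72 to tumor 21 at 2.00 in the mean. TIE1 breaks the order in tumors 1 and 22, FLT1 in tumors 10, 17, 22 and 24, and ESAM changes least.

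Ligand and receptor were correlated over the tumors for 12 fixed pairs. VEGFA with KDR had r = 0.725 (rho 0.562, 0.583 without the 2 tumors farthest in VEGFA, permutation test, adjusted p = 3.87e-05), and VEGFA with FLT1 r = 0.676 (rho 0.490, 0.617 without them, adjusted p = 0.000378 by permutation). Tumor 21, with VEGFA at 3.82, and tumor 20, at 2.50, were the 2 highest tumors for both FLT1 and KDR. Without tumor 21 the VEGFA correlations were 0.625 with KDR and 0.582 with FLT1. The median r of VEGFA with all 9 genes was 0.419.

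VEGFC, although lower in tumors than in normal samples, was higher where KDR was higher, at r = 0.761 (rho 0.777, 0.764 without the 2 farthest tumors, permutation test, adjusted p = 0.000103). Its median r with all 9 genes was 0.722. PGF with FLT1 had r = 0.595 (rho 0.542, adjusted p = 0.00149 by permutation). VEGFB with FLT1 did not pass, at r = 0.231 (rho 0.20, permutation test, adjusted p = 0.305).

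ANGPT1 with its receptor TEK had r = 0.655 (rho 0.676, 0.668 without the 2 farthest tumors, permutation test, adjusted p = 0.000535). ANGPT2 with TEK had r = 0.507 (permutation test, adjusted p = 0.0107), but by rank it did not pass (rho 0.378, adjusted p = 0.0709), nor without the 2 farthest tumors (r = 0.402). ANGPT2 with TIE1 did not pass (r = 0.296, rho 0.241, permutation test, adjusted p = 0.171). The median r with all 9 genes was 0.332 for ANGPT1 and 0.688 for ANGPT2. PTPRB, the endothelial phosphatase that acts on TEK, had the highest r of the 12 pairs, 0.850 with TEK (rho 0.860, 0.805 without the 2 farthest tumors). Its median r with all 9 genes was the same, 0.850, and its highest was 0.942.

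TGFB1 with ENG had r = 0.673 (rho 0.709, 0.606 without the 2 farthest tumors, permutation test, adjusted p = 0.000248), equal to the median r of TGFB1 with all 9 genes. UNC5B, a receptor that binds ROBO4, had r = 0.485 with it (rho 0.504, 0.499 without the 2 farthest tumors, adjusted p = 0.0160 by permutation). SLIT2 with ROBO4 was at r = 0.073 (rho 0.204, permutation test, adjusted p = 0.784).

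Some genes of other cell types also followed the endothelial genes. PDGFRB passed with 7 of the 9 genes, all but TIE1 and ESAM, with a median r of 0.787 and the highest value, 0.878, with ENG (rho 0.866, 0.848 without the 2 farthest tumors, permutation test, adjusted p = 3.87e-05). COL1A1, the fibrillar collagen of fibroblasts, passed with 6, and its r with ENG was 0.799. The KDR pair of COL1A1 did not pass without tumor 21 (r = 0.378). Over the 7 fibroblast genes tested the median r with the 9 genes ran from -0.065 for PDGFRA through 0.172 for DCN, 0.242 for LUM, 0.507 for COL6A3, 0.552 for COL1A1 and 0.620 for COL1A2 to 0.634 for FBLN1. Over the 5 genes of the pericyte list, which also holds the ligand PDGFB, it ran from 0.226 for NOTCH3, the Notch receptor of mural cells, through 0.750 for MCAM to 0.787 for PDGFRB. For MYH11, the myosin of smooth muscle, only the TEK pair passed (r = 0.430, permutation test, adjusted p = 0.0347), and 4 passed by rank. PTPRC, the pan-leukocyte marker CD45, passed with PECAM1 (r = 0.479) and TEK (r = 0.500); the PECAM1 pair did not pass without the 2 farthest tumors (r = 0.331). EPCAM passed with none, with r from -0.166 to 0.056 and no pair past the threshold by rank. It does not stand for all epithelial genes, whose median r with the 9 genes ran from -0.538 for UPK2 and -0.394 for CDH1 to 0.116 for CLDN4, around -0.198 over the 6 tested, values for which no test was run. Differences between these correlations were not tested.

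The 10 genes most like the 9, by the median Pearson r with them over 29 tumors among 11736 named genes, were PLVAP, CD34, CLEC14A, PTPRB, PCDH17, DYSF, NOTCH4, FGD5, LAMA4 and TMEM204. Their median r ran from 0.861 for PLVAP, a protein of the diaphragms of fenestrated capillaries, to 0.839 for TMEM204. This ranking is a description over the same 29 tumors. Of the 10, 4 were called lower in tumors, beside 45.8% of all genes, and none was called higher. PLVAP differed by 0.74 and TMEM204 by -0.03 without a call, while LAMA4, a laminin chain of vascular basement membrane that muscle also makes, fell by 3.29 (limma adjusted p = 3.86e-05). Also lower were CD34, with -1.42, DYSF, the membrane repair protein dysferlin, with -1.63 (limma adjusted p = 0.0231) and PCDH17, a protocadherin, with -1.18 (limma adjusted p = 0.0474). PTPRB, NOTCH4, the Notch receptor of endothelium, CLEC14A, an endothelial lectin, and FGD5, an exchange factor for CDC42, were not called, with differences of -0.34, -0.57, -1.07 and -0.93.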

How the data were processed

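RNA from 29 canine iUC biopsies and 4 normal bladder samples had been sequenced by the authors as paired-end 150 bp reads (ScriptSeq v2 libraries, Illumina HiSeq 4000), aligned to CanFam 3.1 with COBWeb and quantified in Strand NGS v3.1. The authors deposited log2 values, normalized by TMM in 1 table and by DESeq in another, with each gene centred on its median. The deposited values are not counts, so depth per sample is unknown and no count test was run. The last line of both copies was incomplete and was dropped. Where samples share a gene's lowest value, it lies at a floor.

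Genes entered the tests when at least 4 samples exceeded that lowest value, or when there was none. Tumors and normals were compared on the TMM values with limma 3.58.1 (R 4.3.3, trended variance) over 24471 genes; correlations over tumors used two-sided permutation tests with 100000 resamples, and 3 ratios exact permutation over 40920 reassignments (Python 3.11.15, numpy 2.4.6, scipy 1.17.1). p-values were adjusted by Benjamini-Hochberg. The limma fit and the permutation test of Pearson r were tested on simulated data. Gene names came from the file, or by Entrez identifier from a RefSeq table of another assembly, used for names, chromosomes and neighbours only. The 10 genes, the lists and the tests were chosen with earlier results of these data known. Named were the 10 genes, all ligands and co-receptors listed, up to 2 rises and 2 falls called per list, and the 10 genes most like the members. Other genes named, such as PROX1, APLNR, PDGFRB and the neighbours, were chosen after their values were seen or belong to the fixed correlations. Alternatives were the authors' other table (normalized by DESeq), limma without trend or with group weights, other filters, centred samples, rank correlation and left-out samples.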

Additional observations from a re-analysis of the deposited data

Results flagged for a closer look

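In 55 genes and ratios checked for a single normal sample far from the other 3, chance flags about 1 in 20, and 2 were found. ESM1 was at -1.50 in normal sample A, against -2.0 to -1.94 in the others, and 28 of 29 tumors still lay above it. CDH1 was at -2.93 in normal sample D, against -1.83 to -1.69 in the others; Outside the genes checked by rule, and chosen after their values were seen, UPK2, a urothelial plaque protein, and KRT19, a keratin, were as far from the others in that sample, at -2.14 against 0.35 to 0.38 and at -1.79 against -0.64 to -0.50. Normal sample D was the lowest in all 6 epithelial genes tested, so these results do not stand alone. Without normal sample D none of the 9 endothelial genes was called higher or lower.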

How the results depend on the processing

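For the 9 endothelial genes the count of genes called lower was 0 in all settings tried except the DESeq-normalized table, where it was 1 (TEK), and the count called higher was 0 throughout; over all genes the DESeq table gave 1377 called higher against 2615. Differences near 0 changed sign without passing: in the DESeq table, which moved all 9 genes alike by -0.30, KDR was -0.21 and ESAM -0.0013, and over the left-out normal samples CDH5 ran from -0.20 to 0.10, KDR from -0.022 to 0.21 and ROBO4 up to 0.091. NRP1 was called lower in the DESeq table, at -1.16 (limma adjusted p = 0.0222). Leaving out each normal sample gave 1.46 to 1.63 for TIE1 to TEK, with exact permutation adjusted p of 0.0381 to 0.0590, and 1.65 to 2.01 for ANGPT2 to ANGPT1, with 0.0181 to 0.0590; leaving out each tumor, as added after the values were seen, changed neither call and gave as little as 1.39 for TIE1 to TEK. Correlations that changed sign, none of which passed in any setting named here, were those of COL1A1 with TIE1 (0.043), MYH11 with ESAM (-0.0094) and PTPRC with ESAM (-0.091) by rank. Without the 2 farthest tumors they were FLT1 with ESAM (-0.023), TIE1 with ESAM (0.178), MYH11 with ESAM (-0.025), PTPRC with FLT1 (-0.034) and ROBO4 (-0.0068), and EPCAM with CDH5 (0.075), FLT1 (-0.024) and ENG (0.097). Without tumor 21 they were FLT1 with ESAM (-0.015) and EPCAM with PECAM1 (0.021), CDH5 (0.021), TEK (0.036) and TIE1 (0.0086). The cause of these changes was not tested. The sample centring left 24 member pairs past the threshold. No paired analysis was possible because the normal samples and tumors come from different dogs and share no replicate labels. A change under 2-fold could not be called by construction, and with 4 normal samples the 95% confidence intervals of all 9 genes except ESAM include a 2-fold change. The depth of the libraries is unknown.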
